A study of Mus musculus with 4 samples.

Results

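Expression of the integrin receptors, of the core proteins that tie them to actin, and of the integrin ligand nephronectin (Npnt) was compared between valve leaflets of Cxcr7-/- newborn mice and of wildtype littermates. The genes were taken by symbol: every integrin alpha or beta subunit, Npnt, and a fixed set of adhesion core genes. This gave 35 genes of the 18193 that the array annotation names singly. They comprised 25 integrin subunits, 9 adhesion core genes and Npnt. Itga11, Itgad, Fermt1 and the focal adhesion kinase gene Ptk2 were not analysed here.

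The tissue was semilunar (aortic and pulmonary) valve leaflets, measured on 4 arrays, each holding RNA of a pool of 3 neonates. Cxcr7-/- neonates made up 2 pools, and the 2 control pools came from wildtype littermates. Pools of a genotype are biological replicates per the labels. Both groups were neonates, and no strain, sex or treatment is named for either. Mutant pools held 4 to 6 leaflets per animal and control pools 6, so the pools may not have held equal amounts of leaflet. The 50 ng of total RNA went through a pair of amplification cycles. Cxcr7, listed as Ackr3, encodes an atypical chemokine receptor that takes CXCL12 out of circulation. It read 28.3 and 328 in Cxcr7-/- pools against 4936 and 5698 in controls, at a log2 fold change of -5.33 ± 0.76 (SE; adjusted p from limma 0.400).

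Integrins are receptors made of an alpha and a beta subunit, and the alpha subunit largely sets which matrix protein is bound. Talin and kindlin bind the beta subunit's tail and activate it, and vinculin, paxillin, integrin-linked kinase, PINCH and parvin build the adhesion that connects it to actin. Nephronectin is a secreted matrix protein with EGF-like repeats that binds the receptor made of the Itga8 and Itgb1 products, a pairing best known from kidney development. In heart valves, interstitial and endothelial cells attach to a layered matrix of collagen, proteoglycan and elastin through such receptors.

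The promoter stretches of Npnt, of both subunits of its receptor, and of the vinculin gene Vcl are shown as examples. Each is the 250 bases before a RefSeq start, on build GRCm38.p6, 5′ to 3′ on the gene's strand. Capitals mark matches, on either strand, to the CArG box bound by serum response factor, the TEAD motif GGAATG, the AP-1 motif TGANTCA and the Sp1 motif GGGCGG. Npnt has a further RefSeq start downstream, whose window is not shown.
Npnt, chr3:132950292-132950541, minus strand: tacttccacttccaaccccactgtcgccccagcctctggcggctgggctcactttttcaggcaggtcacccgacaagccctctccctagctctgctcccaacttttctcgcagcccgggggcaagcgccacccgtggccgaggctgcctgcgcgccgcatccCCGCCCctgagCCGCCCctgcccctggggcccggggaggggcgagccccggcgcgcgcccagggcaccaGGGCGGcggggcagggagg
Itga8, chr2:12301945-12302194, minus strand: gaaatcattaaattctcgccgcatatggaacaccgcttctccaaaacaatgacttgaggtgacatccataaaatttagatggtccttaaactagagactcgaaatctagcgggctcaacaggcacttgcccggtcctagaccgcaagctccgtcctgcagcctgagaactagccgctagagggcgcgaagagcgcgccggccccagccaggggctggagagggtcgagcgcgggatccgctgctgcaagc
Itgb1, chr8:128685404-128685653, plus strand: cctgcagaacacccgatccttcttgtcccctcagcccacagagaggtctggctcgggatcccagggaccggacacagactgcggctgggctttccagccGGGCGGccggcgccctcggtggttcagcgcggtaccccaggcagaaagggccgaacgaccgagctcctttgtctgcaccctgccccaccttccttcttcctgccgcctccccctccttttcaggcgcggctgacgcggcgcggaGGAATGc
Vcl, chr14:20929148-20929397, plus strand: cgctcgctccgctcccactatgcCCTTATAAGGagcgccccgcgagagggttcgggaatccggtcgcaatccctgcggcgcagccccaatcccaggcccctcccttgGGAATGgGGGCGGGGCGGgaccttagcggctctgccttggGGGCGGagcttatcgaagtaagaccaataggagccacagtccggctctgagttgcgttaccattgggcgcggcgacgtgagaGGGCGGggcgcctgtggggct
The Npnt window held Sp1 matches only, and the Itga8 window held none of the 4 motifs. The Itgb1 window held a TEAD match that began 7 bases before the start, and the Vcl window held a CArG box that began 227 bases before it. RefSeq windows were matched for 25 of the 35 genes, 31 windows in all. A CArG box was in 3 of these windows (Fermt2, Itgb6 and Vcl), or 9.68%, against 1.47% of all 32851 windows. The TEAD motif was in 3 windows (Itga10, Itgb1 and Vcl), or 9.68%, against 12.6% of all. The AP-1 motif was in 3.23% against 6.75%, and the Sp1 motif in 38.7% against 32.7%. Member windows had a median GC content of 57.6%, against 52.4% over all windows. The motifs can abut or overlap, as the Sp1 matches do in Vcl. A match is a string of letters and not a measured binding site.

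Signals are MAS5 intensities on a linear scale, and each gene stands for its probe set with the highest mean over the 4 arrays. Fold changes are differences of log2(signal + 22), Cxcr7-/- minus control, which understates changes of dim genes. A gene counted as measured when its mean log2 signal was above the median of all probe sets. This held for 28 of the 35 genes, and for 18 of the 25 integrin subunits and all 9 adhesion core genes. The integrin and adhesion genes did not shift together: 13 of the 28 had positive and 15 had negative log2 fold changes, with a median of -0.09, where the median over all 11260 genes measured was 0.0048.

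**Figure D1:**
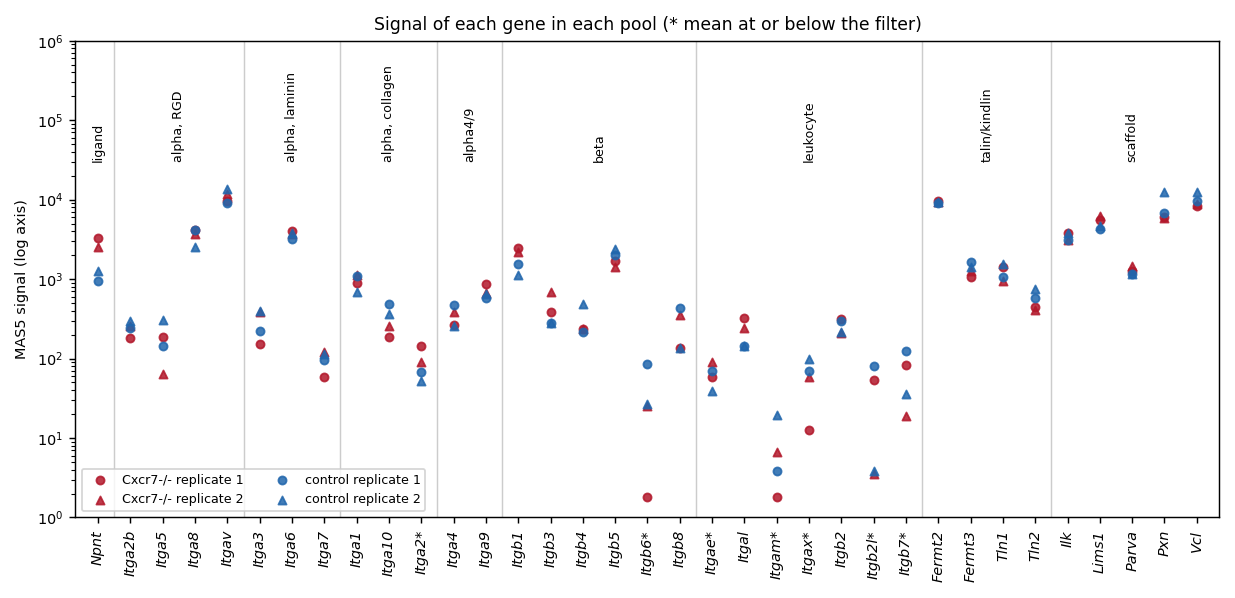
MAS5 signal (log axis) of each of the 35 genes in each of the 4 pools, with red for Cxcr7-/-, blue for control, circles for replicate 1 and triangles for replicate 2. Both red points of Npnt, Itgb1, Itgb3 and Itgal lie above both blue points, both red points of Itga10 lie below them, and the 7 genes marked with a star have a mean at or below the filter.

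No gene passed the adjusted threshold of 0.05 in limma, among these 28 or among all 11260 (0% called). At an unadjusted p under 0.05, 4 of the 28 were higher in Cxcr7-/- pools (Npnt, Itgal, Itgb3 and Itgb1), where the same rule called 3.93% of all genes. In the other direction 1 was lower (Itga10), where the rule called 4.03% of all genes. Both Cxcr7-/- pools lay above both control pools for 7 of the 28, where 21.1% of all genes did, and below them for 6, where 19.1% of all genes did. Both of these shares, 25.0% and 21.4% of the 28, are near the background. The log2 fold change was larger than the difference between the pools of either genotype for 10 of the 28, where 26.4% of all genes met this rule. The p-values measure the spread between pools only, and an exact two-sided permutation test of 2 against 2 pools cannot go below 0.333.

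Npnt had the largest difference among the 28 measured genes. Cxcr7-/- pools read 3256 and 2562 and control pools 935 and 1257, so the genotypes did not overlap. This was a log2 fold change of 1.40 ± 0.28 (SE; 2 pools per genotype), or a 2.63-fold higher level, with an unadjusted 95% interval of 0.75 to 2.04 (adjusted p from limma 0.406). The pools of 1 genotype differed by 0.34 (Cxcr7-/-) and 0.42 (control) on the log2 scale. Among all 11260 genes it ranked 36 by the height of the fold change and 25 by p, and a log2 fold change of at least 1 was reached upward by 1.52% of genes.

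Npnt was read by 5 probe sets. A second bright probe set gave 2582 and 1824 against 762 and 924, at 1.35 ± 0.29 on the log2 scale, and the third that passed the filter gave 323 and 179 against 162 and 166, at 0.50 ± 0.39. These 3 had the same direction, and in the third the lower Cxcr7-/- pool was close to both control pools. Of the dim probe sets, 1 gave 109 and 55.3 against 6.00 and 34.9, and the other gave no signal above 15.4 in any pool. Averaging the 3 kept probe sets lowered the log2 fold change of Npnt to 1.08.

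Of the receptor subunits for nephronectin, Itga8, the alpha subunit, read 4133 and 3743 in Cxcr7-/- pools against 4118 and 2568 in controls. The genotypes overlapped, and the log2 fold change was 0.27 ± 0.28 with a 95% interval of -0.38 to 0.93, so neither a lower level nor a difference of nearly 1 log2 unit is outside it. Without control replicate 2 it was -0.07. The other kept probe set of Itga8 read 213 and 105 against 114 and 49.9, at 0.80 ± 0.50, and the mean over both was 0.54. The difference between the fold changes of Itga8 and Itgb1 was not tested. Itgb1, the beta subunit shared by the largest group of integrins, read 2448 and 2208 against 1559 and 1126. Its Cxcr7-/- pools lay above both control pools, with a log2 fold change of 0.80 ± 0.27 (95% interval 0.17 to 1.43, adjusted p from limma 0.444). Itgb1 was read by 6 probe sets. A further Itgb1 probe set read 2086 and 2099 against 1711.5 and 839, at 0.79 ± 0.35, and the remaining kept set was at 0.34 ± 0.36. The Itgb1 sets below the filter gave no signal above 64.1 in any pool and did not share the rise. Of these, the set at 1.18 and 5.01 against 29.6 and 6.47 was lower in both mutant pools, and the others overlapped. The mean over the 3 kept sets of Itgb1 was 0.64, and it no longer reached an unadjusted p of 0.05.

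Alpha subunits of receptors that recognise the RGD peptide overlapped between genotypes in all 4 cases. Itgav, the alpha chain of vitronectin and latent TGF-beta receptors, read 9703 and 11697 against 9102 and 13707.5, at -0.07 ± 0.26. The fibronectin receptor chain Itga5 was at -0.79 ± 0.54, with 186 and 63.5 against 142 and 302, and the platelet chain Itga2b was at -0.29 ± 0.35. The Itga5 pools differed within each genotype by more than the genotypes did. Its other 3 probe sets were all below the filter.

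Laminin-binding alpha subunits overlapped as well. Itga6 read 3979 and 3686 against 3157 and 3831, at 0.14 ± 0.24. Itga3 was at -0.27 ± 0.49 and Itga7, the subunit of muscle, at -0.24 ± 0.45, both on dim probe sets with wide errors. Of the collagen-binding subunits, Itga10, known mainly from cartilage, was lower in both Cxcr7-/- pools, with 185 and 258 against 492 and 358. Its log2 fold change was -0.88 ± 0.35 (95% interval -1.68 to -0.07, adjusted p from limma 0.468), and no other probe set carried its name alone. Itga1, a collagen receptor chain of mesenchymal cells, read 886 and 1118 against 1084 and 683, at 0.20 ± 0.32, and overlapped. Itga2 was just below the filter and read 142 and 90.6 against 67.7 and 52.2.

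The subunits Itga4 and Itga9, which bind VCAM1, fibronectin and tenascin, gave no clear difference. Itga9 read 864 and 667 against 576 and 655, at 0.30 ± 0.29, but its other kept probe sets were at -0.41 ± 0.47 and -0.80 ± 0.36. The Itga9 probe sets thus disagreed in direction. Itga4 was at -0.12 ± 0.39.

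The beta subunits other than Itgb1 went both ways. Itgb3, which pairs with Itgav and with the platelet chain Itga2b, read 390.0 and 684 in Cxcr7-/- pools against 279.7 and 284 in controls. Both mutant pools were higher, at a log2 fold change of 0.83 ± 0.36 (adjusted p from limma 0.492), which was 0.44 without Cxcr7-/- replicate 2 and 1.22 without Cxcr7-/- replicate 1. Its other, dim probe set read 94.6 and 125 against 13.2 and 6.50, in the same order. Platelet and megakaryocyte markers beside it had 3 of 10 measured, none of them higher in both mutant pools, and summed signals of 378 to 626 in Cxcr7-/- pools and 583 to 747 in control pools. Platelet factor 4 (Pf4), listed here with the macrophage markers, read 2880 and 1934 against 1629 and 1419, higher in both mutant pools. The part of platelets in the Itgb3 values was not tested.

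Itgb5, the vitronectin receptor beta chain, read 1675 and 1416 against 2023 and 2367. Both mutant pools were lower on this probe set, at -0.50 ± 0.25 (adjusted p from limma 0.547). The other 3 kept Itgb5 probe sets had the same sign at -0.27 to -0.47, but the genotypes overlapped in all of them. Itgb4, the hemidesmosome chain of epithelia, was at -0.45 ± 0.42 with only control replicate 2 high, and Itgb8 was at -0.13 ± 0.59. Itgb6, an epithelial chain, was below the filter at 1.82 and 25.5 against 85.2 and 26.9.

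Of the 7 leukocyte integrin subunits, 2 were measured. Itgal, the alpha chain of LFA-1, read 326 and 239.9 in Cxcr7-/- pools against 143 and 144 in controls. The mutant pools were higher, with a log2 fold change of 0.86 ± 0.35 (adjusted p from limma 0.473), and its dim probe set read 74.0 and 74.98 against 13.3 and 16.3. Its beta partner Itgb2, shared by leukocyte integrins, read 318 and 207 against 299 and 217, at 0.0093 ± 0.37, and overlapped. The myeloid chain Itgam gave no signal above 19.4 in any pool, and Itgax, of dendritic cells and some macrophages, read 12.5 and 58.4 against 69.3 and 97.5, below the filter and lower in both mutant pools. The chains Itgae, Itgb7 and Itgb2l read between 3.51 and 125 and overlapped.

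Macrophage markers beside these leukocyte chains were higher in the mutant pools. All 23 measured of 24 listed had positive log2 fold changes, 18 had both mutant pools above both controls, and their summed signal was 30607 and 33862 in Cxcr7-/- pools against 18881 and 23308 in control pools. The defining markers Csf1r and Adgre1 read at least 6899 and 493 in every pool. None of the 11 lymphocyte markers was measured, with summed signals of 282 and 460 in Cxcr7-/- pools and 267 and 278 in control pools. The part of either cell type in the Itgal values was not tested. In tissue RNA, a change in the number of cells of a type and a change in RNA per cell cannot be told apart.

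**Figure D2:**
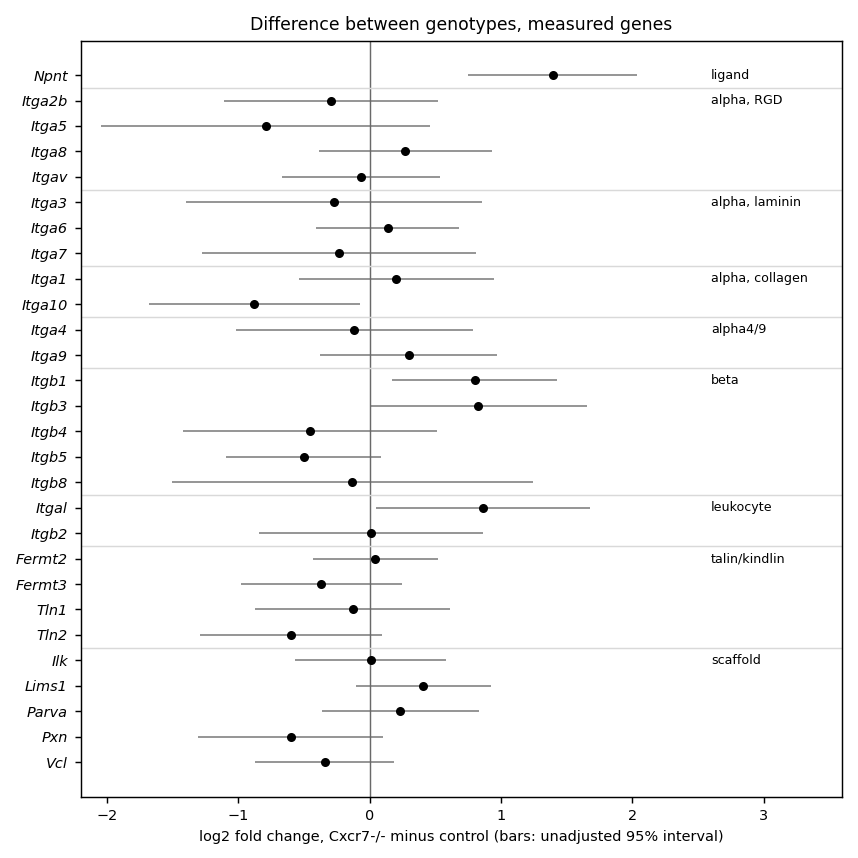
Log2 fold change (Cxcr7-/- minus control) of the 28 measured genes by role, with bars for the unadjusted 95% interval from limma on 2 and 2 pools. The interval excludes 0 for Npnt, Itgb1, Itgb3, Itgal and Itga10, and covers it for every adhesion core gene.

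On the brightest probe set of each, none of the 9 adhesion core genes reached an unadjusted p of 0.05. Their log2 fold changes on these sets ran from -0.60 to 0.41 with a median of -0.13. Fermt2, the kindlin of mesenchymal and muscle cells, read 9629 and 9216 in Cxcr7-/- pools against 9008 and 9249 in controls, at 0.05 ± 0.21. Its 95% interval was -0.43 to 0.52, and its other kept probe sets were at 0.22 ± 0.28 and -0.57 ± 0.38. Fermt3, the kindlin of blood cells, read 1074 and 1277 against 1638 and 1404, at -0.37 ± 0.26. The other kept Fermt3 probe set read 242 and 202 against 267 and 204, at -0.07 ± 0.35, and overlapped. Talin 1 (Tln1) overlapped at -0.13 ± 0.32, and a dimmer kept set was at -0.68 ± 0.47. Talin 2 (Tln2), the form of striated muscle and brain, read 442 and 409.7 against 577 and 749, lower in both mutant pools at -0.60 ± 0.30 (adjusted p from limma 0.541). Its other kept probe set was at -0.13 ± 0.39, and the mean of both was -0.37.

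On the brightest probe set, none of the 3 genes of the integrin-linked kinase complex reached an unadjusted p of 0.05. The kinase Ilk was at 0.0075 ± 0.25, the PINCH gene Lims1 at 0.41 ± 0.22 and alpha-parvin (Parva) at 0.24 ± 0.26. Lims1 was read by 5 probe sets, all kept, that disagreed: they ran from -1.01 ± 0.35 to 0.41 ± 0.34, 3 of them negative. The Lims1 probe set at -1.01 read 200.2 and 135 against 381 and 333 (p from limma 0.020 unadjusted and 0.447 adjusted).

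Paxillin and vinculin were lower in both mutant pools on the brightest probe set, and control replicate 2 set most of the difference. Paxillin (Pxn), an adaptor of focal adhesions, read 6036 and 5945 in Cxcr7-/- pools against 6697 and 12364 in controls, at -0.60 ± 0.31. Without control replicate 2 it was at -0.16, and without control replicate 1 at -1.04, with an adjusted p from limma of 0.0354. The other kept Pxn probe set read 1124 and 1093 against 1087 and 1941, at -0.38 ± 0.33, and overlapped. Vinculin (Vcl), which binds talin and actin, read 8397 and 8891 against 9534 and 12586, at -0.34 ± 0.23, and at -0.14 without control replicate 2. The other Vcl probe set, below the filter, went the opposite way, with 51.6 and 63.1 against 2.56 and 10.2. These proteins are abundant in muscle. Cardiomyocyte markers were all lower: 25 of 25 had negative log2 fold changes, 17 with both mutant pools below both controls, and their summed signal was 123175 and 177899 in Cxcr7-/- pools against 214206 and 318190 in control pools, highest in control replicate 2. Of 10 measured smooth muscle markers, 9 had negative log2 fold changes, 7 with both mutant pools below both controls. Actg2 of this list was higher in both mutant pools, at 0.79 ± 0.30. Smooth muscle markers summed to 21272 and 25506 against 30921 and 41348, also highest in control replicate 2. Their part in the Vcl, Pxn and Tln2 values was not tested.

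**Figure D3:**
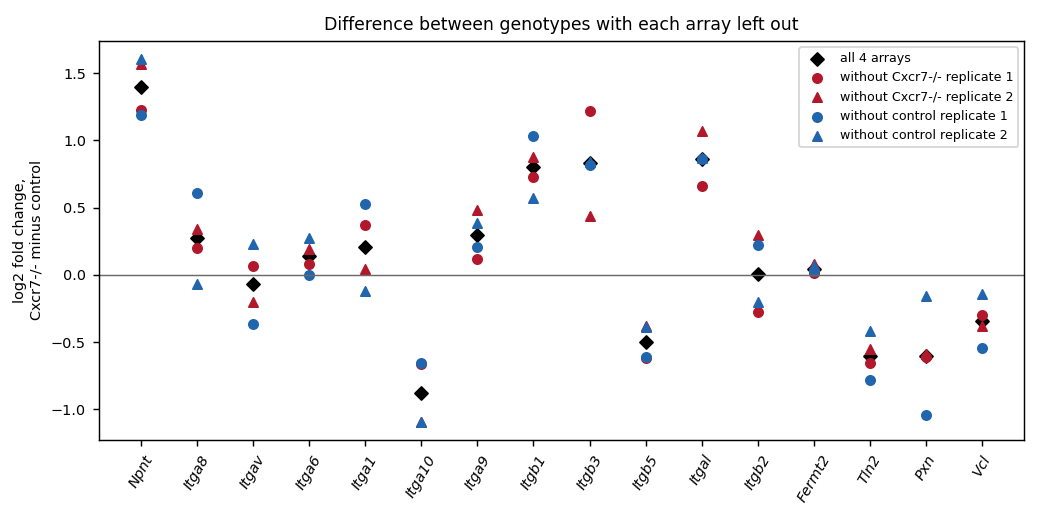
Log2 fold change (Cxcr7-/- minus control) of 16 genes with all 4 arrays (black) and with each array left out (coloured). Npnt stays between 1.19 and 1.61, while Pxn moves from -1.04 to -0.16 and Itgb3 from 0.44 to 1.22.

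Leaving out each array in turn, the log2 fold change of Npnt was 1.22 without Cxcr7-/- replicate 1 (adjusted p = 1.00 from limma), 1.57 without Cxcr7-/- replicate 2 (0.491), 1.19 without control replicate 1 (0.0495) and 1.61 without control replicate 2 (0.121). It passed the adjusted threshold in 1 of these fits. Itgb1 ran from 0.57 without control replicate 2 to 1.03 without control replicate 1, Itgal from 0.66 to 1.07 and Itga10 from -1.09 to -0.66. Npnt kept an unadjusted p under 0.05 in all 4 fits. Itgb1 kept it only without control replicate 1, Itgb3 only without Cxcr7-/- replicate 1, Itga10 only without control replicate 2, and Itgal in none. Npnt, Itgb1, Itgb3, Itgal and Itga10 kept their direction in all 4 fits. This was fixed in advance, because their pools did not overlap between genotypes. A fit with 3 arrays assumes that the lone pool varies like the pair of the other genotype.

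**Figure D4:**
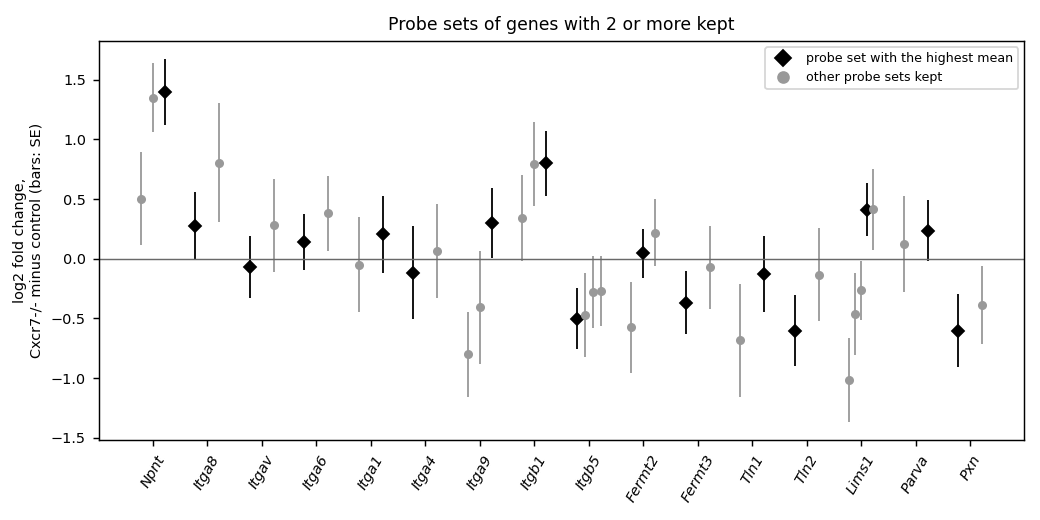
Log2 fold change (Cxcr7-/- minus control, bars SE) of each kept probe set of the 16 genes with 2 or more kept. Black diamonds mark the probe set with the highest mean, and the points of Itga9 and Lims1 lie on both sides of 0.

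Of the 16 genes with at least 2 kept probe sets, 10 had the same sign in all of them, or 62.5%, against 53.6% of the 4926 such genes on the array. The agreeing genes included Npnt, Itgb1, Itgb5, Itga6, Itga8, Pxn and Tln2. The disagreeing ones were Fermt2, Itga1, Itga4, Itga9, Itgav and Lims1. The median spread between a gene's probe sets was 0.40 on the log2 scale, against 0.44 over all such genes.

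Genes around the adhesion were taken from 4 lists, and no gene of them passed the adjusted threshold. Of 89 measured genes, 2 were higher and 7 lower by unadjusted p (under 0.05), where this called 3.93% of all genes as higher and 4.03% as lower, and the median log2 fold change was -0.05. Among 26 measured integrin ligands and nephronectin relatives, 1 was higher and 3 lower, with a median of -0.23. Egfl6, the closest relative of nephronectin, read 93.0 and 153 in Cxcr7-/- pools against 120.4 and 100.2 in controls, at 0.10 ± 0.41, and overlapped. Edil3, an RGD-containing ligand of Itgav receptors, read 3334 and 3843 against 2285 and 1852, higher in both mutant pools at 0.79 ± 0.25, and its other kept probe set was at 1.03 ± 0.47.

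Fibronectin (Fn1) read 13317 and 12820 against 18980.2 and 17890, lower in both mutant pools at -0.50 ± 0.20. Von Willebrand factor (Vwf), made by endothelium, read 1635 and 1434 against 2727 and 2733, at -0.83 ± 0.24. Endothelial markers as a list, which includes Vwf itself, had a median of -0.23, with 15 of 20 negative. Their summed signals were 42881 and 42964 against 50705 and 57805, and their part in the Vwf value was not tested. Tgfb1, whose latent form binds Itgav receptors, was at -1.22 ± 0.41 on a dim probe set (50.9 and 76.2 against 154 and 199), while its other kept probe set was at 0.10 ± 0.50.

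The Fraser complex of basement membranes, which can hold nephronectin, split by gene over 4 measured members. Fras1 read 42.1 and 146 against 292 and 204 (-1.36 ± 0.52), and its adaptor Grip1 read 61.6 and 85.3 against 210.4 and 154 (-1.09 ± 0.40). Both were lower in both mutant pools, on dim probe sets. Frem1 read 1109 and 936 against 818 and 727 (0.39 ± 0.27), and Frem2 read 276 and 318 against 226 and 197 (0.45 ± 0.33). These 2 genes were higher in both mutant pools, by less than 1.5 of their standard errors.

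Of 31 measured adhesion adaptors, 1 was higher and 2 lower, with a median of -0.05. Dab2, a clathrin adaptor that takes up integrins and is also made by macrophages, read 2636 and 2509 against 1598 and 1284, at 0.83 ± 0.25, but its other 3 kept probe sets ran from -1.18 to 0.30. Zyxin (Zyx), a protein of mature adhesions, read 1115 and 1146 against 1667 and 3149.8, at -1.01 ± 0.34, with its other kept set at -0.98 ± 0.44. Control replicate 2 was the high pool, as for Pxn. Nexilin (Nexn), an actin-binding protein of heart muscle, read 579 and 1860 against 2304 and 2805, at -1.27 ± 0.49. Of 28 measured adhesion kinases and GTPase signalling genes, none reached an unadjusted p of 0.05, and their median was 0.16.

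**Figure D5:**
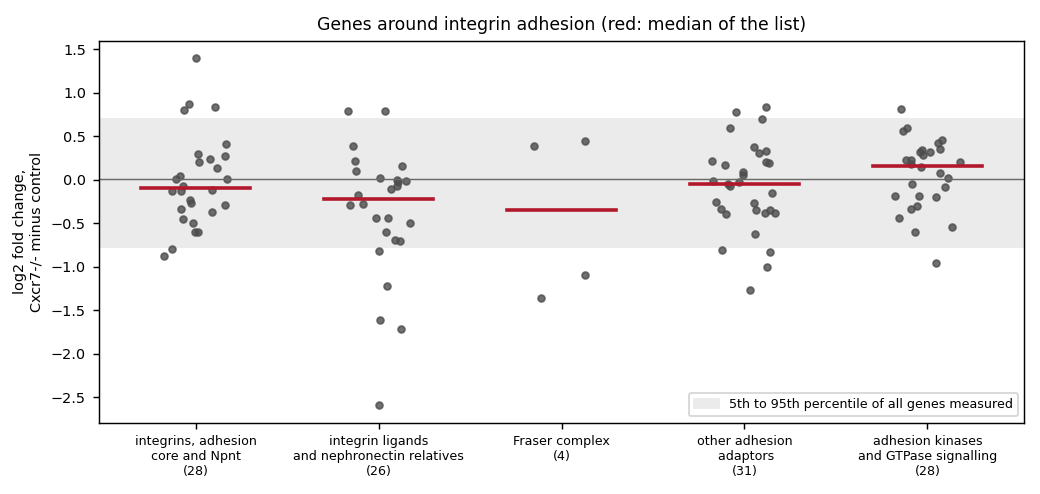
Log2 fold change (Cxcr7-/- minus control) of each measured gene (points) in the integrin and adhesion set and in 4 lists around it, with red bars for list medians and the number measured in brackets. The grey band spans the 5th to 95th percentile of all genes measured, -0.78 to 0.70, and most points of every list except the 4-gene Fraser complex lie inside it.

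The tissue label was checked against markers. All 15 valve interstitial markers with a probe set and all 20 endothelial markers were measured, and the interstitial sum was 347860 and 360488 in the Cxcr7-/- pools against 366633 and 261940 in the control pools. All 25 cardiomyocyte markers were measured too. Lung and other epithelial markers had 10 of 14 measured and summed to 2029 and 3137 against 5250.0 and 9283, with the airway secretoglobin Scgb3a2 at 1067 and 696 against 3190 and 6476. Cell cycle genes were positive in 19 of 19 measured, 17 with both mutant pools above both controls, and summed to 54548 and 53922 against 34695 and 37288. The part of either in the integrin and adhesion values was not tested. Median signals were 84.5 and 92.5 for Cxcr7-/- arrays against 109.9 and 89.9 for control arrays. The 3′ to 5′ ratio of the Actb control probe sets was 11.7 to 15.5 against 19.1 to 20.2. For Gapdh it was 12.6 and 8.20 in Cxcr7-/- replicates 1 and 2, against 12.7 and 24.2 in control replicates 1 and 2. Over 22518 probe sets, which are not independent replicates, the mutant pools correlated at 0.956 and the control pools at 0.931, and Cxcr7-/- replicate 2 with control replicate 1 at 0.953.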

How the data were processed

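Valve leaflet RNA of 4 pools was measured on Affymetrix mouse arrays. The deposited table gives each probe set a linear intensity, made by the authors with Affymetrix Expression Console and MAS5 per the submitters' processing notes. Software versions, detection calls and the build were not given in the sources used here. The trimmed mean of each array (2% off each end) was 500.003. Dim signals carry large relative errors, the amplification favours probes near the 3′ end, and the number of arrays limits the precision.

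Of 45101 probe sets, 64 controls were set aside. Signals were taken as log2(signal + 22), and 22518 probe sets above the median mean were kept. Names came from an array annotation, updated by gene identifier to RefSeq: 34945 probe sets had 1 symbol, 932 several and 9160 none. In R 4.3.3, limma 3.58.1 (a linear model and moderated two-sided test, trend on intensity, 5.85 prior and 2 residual degrees of freedom) compared genotypes over all kept probe sets, with Benjamini-Hochberg adjustment at 0.05. The code was tested on simulated data. The genes and lists were chosen with earlier results of these data known, so their counts are descriptions. Of the 4 lists around the adhesion, the genes named were up to 3 in each direction by p under 0.05, with Egfl6, Fras1, Frem1 and Frem2. Among the 35 genes, pool signals are given for Npnt, Itga8 and Itgb1, for those with p under 0.05, for those whose genotypes did not overlap at an absolute log2 fold change of at least 0.5, and for the gene with the highest mean in each role. Other genes, some of them with pool signals, were named after their values were seen. Alternatives covered the pseudocount, filter, normalization, trend, probe set choice, replicate block and each array left out. The labels tie replicate numbers to no litter or day. Promoter sequences are RefSeq's.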

Additional observations from a re-analysis of the deposited data

How the results depend on the processing

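Of 266 values recomputed under alternatives, 238 kept their direction and their side of the threshold or stayed within the bounds set for counts. Of the 16 named genes, 9 kept their direction under every alternative run: Npnt, Itga10, Itgb1, Itgb3, Itgb5, Itgal, Tln2, Pxn and Vcl. The pools of these 9 did not overlap between genotypes, so leaving out any array could not turn their sign. The filter, trend and replicate block settings do not change the fold change of a probe set, so they could not turn it either. Npnt ranged from 1.08 (mean over its kept probe sets) to 1.61. With each array left out, Npnt ran from 1.19 to 1.61, probe sets past the adjusted threshold from 0 to 673, genes of the set higher at an unadjusted p under 0.05 from 1 to 3 and lower from 0 to 5, and their median from -0.066 to 0.075. With no filter on dim probe sets the genes higher were 2 of 35. With the filter at the 75th percentile, 2 were higher and 0 lower of 17, and the median was 0.045. With the replicate block, 2 were higher and 0 lower. Same-numbered pools correlated at -0.262 in their deviations over probe sets, which cannot show whether the numbers pair the pools. A crossed pairing of replicate numbers, chosen after seeing the data, gave 5 probe sets past the threshold and 2 genes lower. With each array left out, values fell on both sides of 0 for Itgav (-0.36 to 0.23), Itgb2 (-0.28 to 0.30), Itga8 (-0.066 to 0.61, below 0 without control replicate 2), Itga1 (-0.12 to 0.53) and Itga6 (-0.00031 to 0.28). As the mean of probe sets, the sign turned for Itgav (0.11), Itga9 (-0.30) and Fermt2 (-0.10). The 673 probe sets and the 5 lower genes were without control replicate 1, and 8 probe sets passed without Cxcr7-/- replicate 2. The cause of these differences was not tested. Genes near the filter have signals close to background.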
